A study of Mus musculus with 24 samples.

Results

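The genes described here encode secreted ligands of the TGF-beta and BMP family and the proteins that bind or process them. All probe sets assigned to Tgfb1, Tgfb2, Tgfb3, Bmp1, Bmp4, Mstn, Inhba, Fst, Fstl1 and Grem1 were taken, and 9 of these 10 genes had a probe set among the 18193 genes measured. No probe set was assigned to Mstn (myostatin) in the annotation used here, so it was not analysed here. The 9 genes had 18 probe sets. Of these, 14 reached a mean intensity of at least 100 at 1 or more time points and were tested together with 13735 probe sets in all, so that each of the 9 genes was tested by at least 1 probe set.

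RNA came from C2C12, a line of mouse skeletal myoblasts that fuse into myotubes when serum is reduced, and all samples are of this 1 line with no other genotype. Each of 8 time points had 3 arrays, 24 in all. Day -1 cells were growing at 50% confluency and Day 0 cells had reached 90% confluency, both in medium with 10% fetal bovine serum. Day 0.25 was 6 hours after the change to reduced serum, which the labels give as 2% and the methods as 3%, and Days 1, 2, 3, 4 and 5 followed in the same medium, renewed every 2 days. No source states whether the 3 arrays of a time point are of separate cultures, and the p-values therefore measure only the spread between arrays, which may be technical.

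Ligands of this family bind pairs of receptor kinases, which phosphorylate Smad proteins. TGF-betas, activins and myostatin act mainly through one branch of Smads and BMPs through another, and BMP signalling switches on the Id genes, whose products hold back myogenic transcription factors. TGF-betas, myostatin and BMPs are known inhibitors of myoblast differentiation, BMP treatment can turn C2C12 cells towards an osteoblast fate, and secreted antagonists such as follistatin and gremlin keep ligands from their receptors.

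The arrays of a time point correlated at r of 0.962 to 0.996 over log2 intensities, and no 2 arrays held identical values. Array medians were 3.63 to 3.87, and values of a few units lie at the lower end of the scale. A deviation shared by many probe sets accounted for 50.3% of the variance within time points. Over the 24 arrays its correlation with a probe set had a median size of 0.68, and it was 0.86 for Tgfb1, 0.39 for Bmp4, 0.46 for the main probe set of Fst and -0.10 for Tgfb3. For Fstl1 it was -0.56 in 1416221_at and 0.80 in 1448259_at, and for Bmp1 0.47 in 1426238_at and -0.61 in 1427457_a_at. The part of this deviation in the results was not tested. All 10 skeletal muscle markers reached 100, with a summed intensity of 4059 to 4693 on Day -1 and 57150 to 65846 on Day 5, while that of the 3 measured markers of dividing cells went from 7263 to 7604 down to 299 to 513.

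Of the 9 genes, 8 changed over the 8 time points (limma's F test, Benjamini-Hochberg adjusted p under 0.05), against 88.8% of all probe sets tested, so that this count is near the background. Most ligands and antagonists were higher at the end than at the start. By gene, the interval between Day 1 and Day 2 held the most calls, 5 against 4 in each of the first 2 intervals. By probe set it did not lead, with 7 higher and 0 lower. Day -1 to Day 0 had 6 higher and 1 lower, and Day 0 to Day 0.25 had 5 and 2. From Day 1 to Day 2, 5 genes rose and none fell, where 22.8% of all probe sets rose and 21.7% fell. The median log2 change of the 9 genes there was 0.77 beside -0.01 for all probe sets. Over the whole span from Day -1 to Day 5, 7 of the genes were higher and 1 was lower, where 31.9% of all probe sets rose and 38.4% fell. Bmp4, Inhba, Fst and Tgfb2 had means under 100 on Day -1 and entered the test through their later levels, so these counts do not describe genes chosen without regard to a rise.

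By gene, the other neighbouring intervals held fewer calls. From Day -1 to Day 0, 4 genes (Tgfb2, Tgfb3, Fst and Grem1) rose and none fell, where 23.3% of probe sets rose and 21.7% fell. From Day 0 to Day 0.25, Tgfb2, Inhba and Fstl1 rose and Fst fell, which is 3 higher and 1 lower against 22.4% and 20.9%. From Day 0.25 to Day 1, Tgfb3 and Fst rose, 2 genes against 11.6% of probe sets, and none fell against 15.4%. From Day 2 to Day 3, 2 genes (Tgfb2 and Tgfb3) rose against 3.23% of probe sets, and none fell against 2.96%. Between Day 3 and Day 4, 0 genes were called, against 0.473% of probe sets higher and 0.663% lower. In the last interval, Day 4 to Day 5, Bmp4 rose, 1 gene against 1.38% of probe sets, and none fell against 2.12%. In a whole culture, fewer cells of a type and less RNA per cell cannot be told apart.

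**Figure D1:**
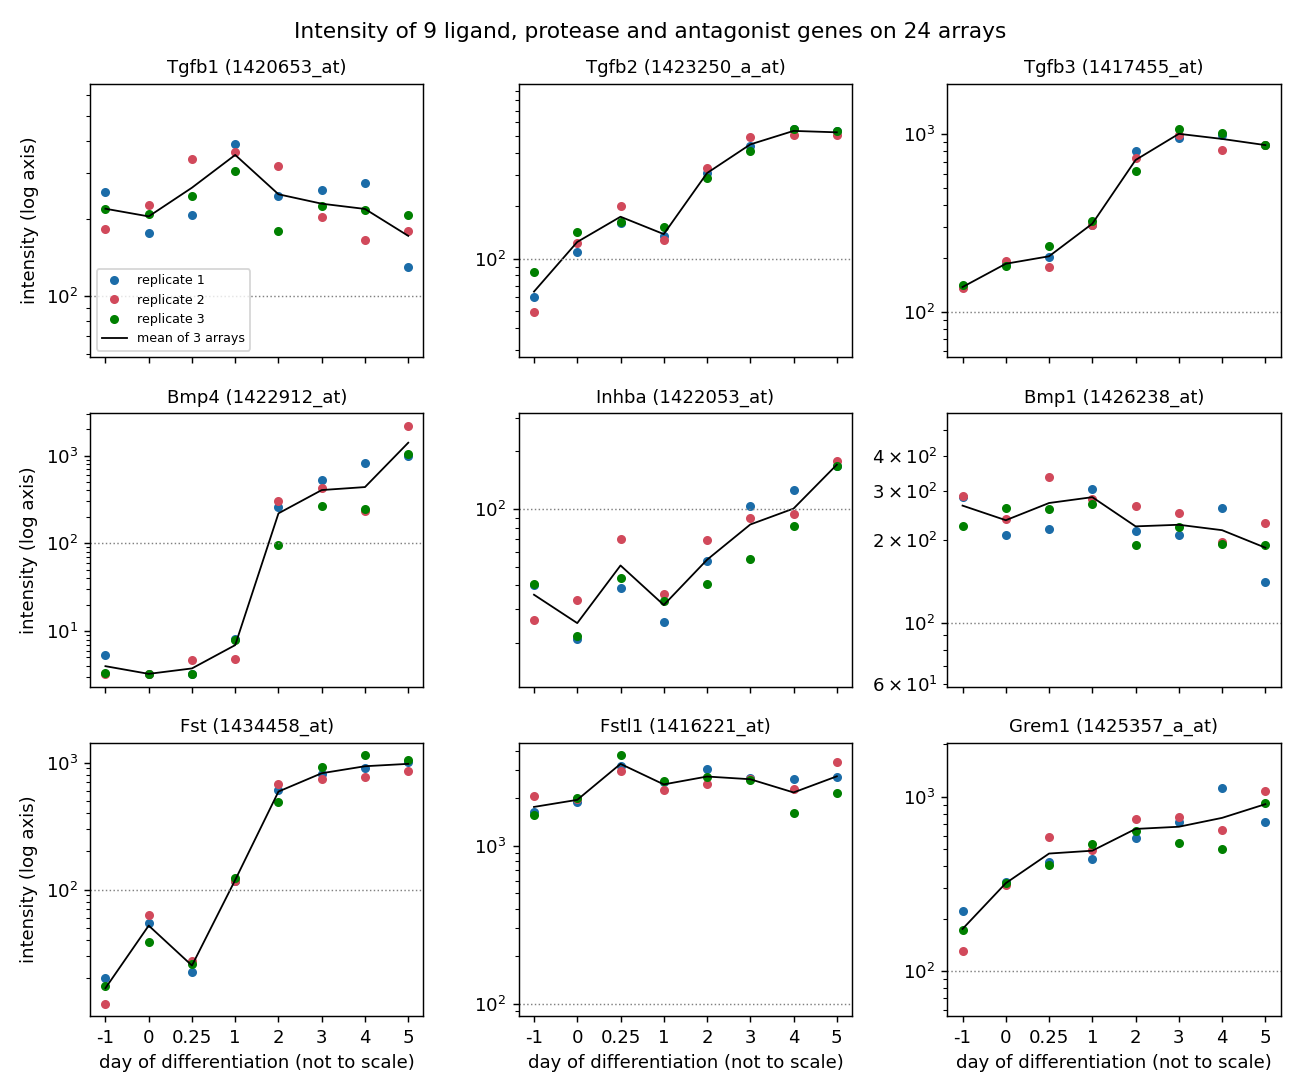
Intensity on each array (points, coloured by replicate number) and the mean of the 3 arrays (line) at the 8 time points, on log axes that differ between panels, with a dotted line at 100. Bmp4 lay under 10 on every array up to Day 1 and between 95.3 and 2182 from Day 2 on, whereas Tgfb1 and the plotted probe set of Bmp1 stayed between 129 and 388.

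Among the TGF-beta ligands, Tgfb1 behaved differently from Tgfb2 and Tgfb3. Tgfb1, the form best known for promoting fibrosis and growth arrest, measured 254, 182 and 219 on the 3 arrays of Day -1. It measured 388, 362 and 307 on Day 1 and 129, 179 and 206 on Day 5. Its highest mean was 352 ± 41.7 (SD, n = 3) on Day 1 and its lowest 171 ± 38.8 on Day 5, with means on Days 0, 0.25, 2, 3 and 4 of 204 ± 25.4, 263 ± 68.8, 248 ± 70.7, 228 ± 28.6 and 218 ± 54.5. The arrays of every neighbouring pair in the order of the 8 means overlapped. Tgfb1 passed the F test (adjusted p = 0.0148), but no interval passed. The change from Day 1 to Day 2 was -0.54 on the log2 scale (SE 0.23, limma adjusted p = 0.0621) and that from Day -1 to Day 5 was -0.36 (adjusted p = 0.164). The F test was lost without Day 1 replicate 1 (adjusted p = 0.0637) and without Day 1 replicate 2 (adjusted p = 0.0521), and with no level filter its adjusted p was 0.0551.

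Tgfb2, a ligand that like the others is secreted in a latent complex, had 3 tested probe sets. Its brightest, 1423250_a_at, measured 60.5, 49.5 and 84.1 on Day -1, 135, 127 and 151 on Day 1, 309, 327 and 287 on Day 2 and 533, 511 and 534 on Day 5. No array of Day 2 came down to the arrays of Day 1. Means on Days 0, 0.25, 3 and 4 were 124 ± 16.1, 173 ± 22.5, 449 ± 44.7 and 536 ± 25.9 (SD, n = 3), and the Day 4 and Day 5 arrays overlapped. The rise from Day 1 to Day 2 was 1.16 on the log2 scale (SE 0.15, 2.23-fold, adjusted p = 5.22e-06), and that from Day -1 to Day 5 was 3.06 (8.32-fold, adjusted p = 4.21e-13). Before differentiation medium was added, this probe set already rose 1.96-fold from Day -1 to Day 0 (adjusted p = 2.72e-05). In that interval 1450923_at rose 1.35-fold (adjusted p = 0.0188), and 1450922_a_at did not pass (1.54-fold, adjusted p = 0.0803). The rise of 1450923_at did not pass without Day -1 replicate 1 (0.0615) or 2 (0.0568) or Day 0 replicate 1 (0.0971) or 2 (0.0561), these being adjusted p-values.

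The rise of Tgfb2 from Day 2 to Day 3 (0.54 on the log2 scale, adjusted p = 0.0341) did not pass without any 1 of Day 2 replicate 1 (0.0769) or 3 (0.139) or Day 3 replicate 1 (0.0659), 2 (0.142) or 3 (0.0686), these being adjusted p-values. That from Day 0 to Day 0.25 (0.48, adjusted p = 0.0132) did not pass without Day 0 replicate 1 (0.0644) or Day 0.25 replicate 2 (0.0576). The second probe set, 1450923_at, changed by 1.22 from Day 1 to Day 2 (adjusted p = 2.47e-06), close to the first. The third, 1450922_a_at, changed by 0.34 there (95% interval -0.26 to 0.94, adjusted p = 0.345) and had a residual SD of 0.38 on the log2 scale, beside 0.18 for the first. All 3 were higher on Day 5 than on Day -1. The other probe set, 1438303_at, never passed 22.5 and was not tested.

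Tgfb3 was the ligand with the tightest replicates. It measured 137, 135 and 141 on Day -1, 309, 307 and 323 on Day 1 and 799, 730 and 617 on Day 2. It reached 949, 996 and 1070.5 on Day 3 and 872, 868 and 865 on Day 5. Means were 186 ± 6.40 on Day 0, 205 ± 27.3 on Day 0.25 and 940.4 ± 109.98 on Day 4 (SD, n = 3). The mean thus levelled off after Day 3, and the later intervals did not pass (Day 3 to Day 4 -0.10, adjusted p = 0.605; Day 4 to Day 5 -0.11, adjusted p = 0.627). Tgfb3 rose by 1.19 on the log2 scale from Day 1 to Day 2 (SE 0.11, 2.27-fold, adjusted p = 9.66e-08), after rises of 0.44 from Day -1 to Day 0 (adjusted p = 0.00231) and 0.62 from Day 0.25 to Day 1 (adjusted p = 0.000261). The rise from Day 2 to Day 3 (0.50, adjusted p = 0.00916) did not pass without Day 2 replicate 3 (adjusted p = 0.0717) or Day 3 replicate 3 (adjusted p = 0.0584). Between Day -1 and Day 5 it rose 6.32-fold (adjusted p = 2.37e-14).

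Bmp4, a BMP that signals through the Id-inducing branch, went from the lower end of the scale to a high level. It measured 5.39, 3.27 and 3.29 on Day -1 and 8.10, 4.75 and 7.93 on Day 1. On Day 2 it measured 259, 304 and 95.3, on Day 4 832, 235 and 244, and on Day 5 986, 2182 and 1027. No array up to Day 1 overlapped any array from Day 2 on, while the arrays of Days 2, 3 and 4 overlapped one another. Means were 3.25 ± 0.02 on Day 0, 3.75 ± 0.83 on Day 0.25 and 404 ± 127 on Day 3 (SD, n = 3). The fitted change from Day 1 to Day 2 was 4.86 on the log2 scale (SE 0.46, adjusted p = 1.75e-07). Because the starting values are at the lower end of the scale, the size is better stated with all values under 50 raised to 50, which gave a 3.92-fold rise (adjusted p = 0.000761) and a 26.1-fold rise from Day -1 to Day 5 (adjusted p = 2.96e-09).

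Bmp4 had the largest spread between arrays of the 9 genes, a residual SD of 0.61 on the log2 scale beside a median of 0.18 over all probe sets. Day 4 replicate 1 stood far above the other arrays of its day, and Day 5 replicate 2 was the highest array of Day 5. The rise from Day 4 to Day 5 (1.84 on the log2 scale, SE 0.46, adjusted p = 0.0293) came with no overlap between the arrays of these days. The change was 1.53 with Day 4 replicate 2 left out (adjusted p = 0.131), 1.56 with Day 4 replicate 3 left out (adjusted p = 0.149) and 1.47 with Day 5 replicate 2 left out (adjusted p = 0.189). The adjusted p was 0.0882 with no level filter and 0.416 in the two-group fit of the methods.

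Inhba encodes the subunit of activin A. It measured 40.2, 26.3 and 40.6 on Day -1, 25.8, 35.8 and 33.0 on Day 1 and 167, 178 and 167 on Day 5, where its 3 arrays lay above those of every other day. Means were 54.3 ± 14.2 on Day 2, 83.1 ± 25.1 on Day 3 and 101 ± 23.1 on Day 4 (SD, n = 3), with overlap between neighbouring days but not between Day 2 and Day 4. From Day -1 to Day 5 it rose by 2.29 on the log2 scale (SE 0.27, 4.87-fold, adjusted p = 2.55e-07), and 3.41-fold with values under 50 raised to 50. Its mean went up from 25.3 on Day 0 to 50.7 on Day 0.25, a rise of 0.99 on the log2 scale (adjusted p = 0.00644), and back to 31.5 on Day 1, a change that did not pass (-0.65, adjusted p = 0.0769). With values under 50 raised to 50, the Day 0 to Day 0.25 change had an adjusted p of 0.511. The rise from Day 1 to Day 2 (0.77, adjusted p = 0.0266) had an adjusted p of 0.114 with Day 1 replicate 1 left out, 0.0671 with Day 2 replicate 1 left out and 0.105 with Day 2 replicate 2 left out. With values under 50 raised to 50 it was 0.19 (adjusted p = 0.433). Both changes lie at means under 100.

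The 250 bases before the start of Tgfb1, Tgfb2, Bmp4 and Inhba are shown because these ligands moved differently over the same days. RefSeq promoter sequences of the mouse build GRCm38.p6 were given for Tgfb1, Tgfb2, Bmp4, Mstn, Inhba, Fstl1 and Grem1, 7 of the 10 genes, and Tgfb3, Bmp1 and Fst had no entry. The windows lie at chr7:25686752-25687001 (plus strand) for Tgfb1, chr1:186705990-186706239 (minus strand) for Tgfb2, chr14:46390670-46390919 (minus strand) for Bmp4 and chr13:16011601-16011850 (plus strand) for Inhba, all upstream of the annotated start. Each is written 5′ to 3′ with the start of the gene just after its last base. Capitals mark matches, on either strand, to CAGCTG and CACCTG, which are E-boxes of the kind that myogenic factors and their repressors bind, to TATAAA (the TATA box) and to GTCTAGAC, the palindrome of the Smad-binding element.
Tgfb1: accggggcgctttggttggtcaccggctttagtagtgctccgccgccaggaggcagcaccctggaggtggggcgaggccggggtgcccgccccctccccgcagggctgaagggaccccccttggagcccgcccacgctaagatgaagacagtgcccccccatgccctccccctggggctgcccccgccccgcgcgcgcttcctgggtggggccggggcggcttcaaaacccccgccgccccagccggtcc
Tgfb2: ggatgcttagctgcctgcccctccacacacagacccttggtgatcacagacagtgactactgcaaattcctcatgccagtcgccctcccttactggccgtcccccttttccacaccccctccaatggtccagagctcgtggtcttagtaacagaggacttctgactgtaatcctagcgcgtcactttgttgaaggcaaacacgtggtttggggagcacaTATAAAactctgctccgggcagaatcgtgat
Bmp4: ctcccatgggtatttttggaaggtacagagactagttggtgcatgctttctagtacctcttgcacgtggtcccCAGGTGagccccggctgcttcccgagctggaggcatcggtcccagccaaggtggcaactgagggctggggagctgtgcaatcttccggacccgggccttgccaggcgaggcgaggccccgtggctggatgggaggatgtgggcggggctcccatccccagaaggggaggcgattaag
Inhba: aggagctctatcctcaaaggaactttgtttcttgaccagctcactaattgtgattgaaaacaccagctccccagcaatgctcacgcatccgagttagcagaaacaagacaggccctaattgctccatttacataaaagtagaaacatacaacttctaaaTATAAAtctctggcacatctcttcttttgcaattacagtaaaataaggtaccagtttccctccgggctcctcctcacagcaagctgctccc
The Tgfb1 window held no match and was 75.2% G and C. That of Tgfb2 held TATAAA at position -31 from the start, that of Inhba held it at -91, and that of Bmp4 held CAGGTG, which is the other strand of the second E-box, at -177. Of 32851 mouse promoters of this length, 12.4% held TATAAA, 17.2% CACCTG, 13% CAGCTG and 0.167% GTCTAGAC on either strand. Promoters of Grem1 and Fstl1 held none of the 4 motifs, and that of Mstn held TATAAA at -29. A match is a description of the letters, not a binding site.

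Bmp1 is a protease that trims procollagens and can release BMPs by cleaving chordin. It was the member that fell between Day -1 and Day 5, from 284, 288 and 224 on Day -1 to 140.05, 229.5 and 191 on Day 5 for probe set 1426238_at. Those arrays overlapped between the days. The change was -0.53 on the log2 scale (SE 0.18, adjusted p = 0.0147), and its adjusted p was 0.116 with Day 5 replicate 1 left out, 0.0523 with Day -1 replicate 1 left out and 0.0547 with Day -1 replicate 2 left out. Over the whole course this probe set did not pass the F test (adjusted p = 0.0544). The other tested probe set, 1427457_a_at, fell from 236, 272 and 203 to 111, 135 and 77.7, with no overlap, a change of -1.16 (SE 0.18, 2.24-fold, adjusted p = 7.91e-06), and it passed the F test (adjusted p = 3.1e-05). It also fell from Day -1 to Day 0 (-0.57, adjusted p = 0.0136) and rose from Day 0 to Day 0.25 (0.61, adjusted p = 0.00999), where the first probe set changed by -0.17 (adjusted p = 0.462) and 0.19 (adjusted p = 0.408). The fall did not pass without Day -1 replicate 2 (adjusted p = 0.0734), nor the rise without Day 0.25 replicate 3 (adjusted p = 0.073).

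Follistatin, the product of Fst, binds activins and myostatin and keeps them from their receptors. Fst (probe set 1434458_at) measured 20.1, 12.6 and 17.5 on Day -1 and 55.0, 62.8 and 38.5 on Day 0. It then measured 22.4, 27.4 and 25.9 on Day 0.25 and 116, 117 and 124 on Day 1. Days -1, 0, 0.25 and 1 did not overlap with one another. On Day 2 it measured 608, 673 and 493, and by Day 5 it had reached 1016, 862 and 1054. Means of 825 ± 94.1 on Day 3 and 936 ± 188 on Day 4 (SD, n = 3) lay between, and the arrays of Days 3, 4 and 5 overlapped.

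The rise of Fst from Day 0.25 to Day 1 was 2.24 on the log2 scale (SE 0.19, adjusted p = 6.06e-08), and that from Day 1 to Day 2 was 2.30 (SE 0.19, adjusted p = 3.62e-08, 4.92-fold). From Day 0 to Day 0.25, in the hours after serum was reduced, it fell by 1.02 (SE 0.19, adjusted p = 0.000259). Probe set 1421365_at had the same order, with means of 2.90 ± 0.43, 10.3 ± 2.29, 3.25 ± 0.09 and 16.1 ± 4.79 (SD, n = 3) on Days -1, 0, 0.25 and 1 and 125 ± 20.3 on Day 2, so it too was low at Day 0.25. All values of 1421365_at up to Day 1 lie under 50, and the Day 0 values of 1434458_at lie near it, so with values under 50 raised to 50 the change of 1434458_at from Day 0 to Day 0.25 was -0.16 (adjusted p = 0.36) and that from Day -1 to Day 0 was 0.16 (adjusted p = 0.366), against 1.63 (adjusted p = 1.02e-06) on the values as deposited. From Day -1 to Day 5 Fst rose by 5.89 (adjusted p = 9.75e-16), or 19.5-fold with values under 50 raised to 50.

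Fstl1, a follistatin-like secreted glycoprotein, had a high intensity on every array. Its probe set 1416221_at measured 1884, 1975 and 2004 on Day 0 and 3178, 2990.3 and 3731 on Day 0.25, with no overlap. The rise was 0.75 on the log2 scale (SE 0.17, 1.68-fold, adjusted p = 0.00133), and it was the largest change of this probe set among the intervals. Its means on Days -1, 1, 2, 3, 4 and 5 were 1763 ± 270.5, 2447 ± 177, 2745 ± 312, 2639 ± 40.3, 2177 ± 520 and 2753 ± 616 (SD, n = 3). From Day -1 to Day 5 it rose by 0.63 (adjusted p = 0.00215). The other probe set, 1448259_at, changed by -0.12 from Day 0 to Day 0.25 (95% interval -0.74 to 0.50, adjusted p = 0.767) and did not pass the F test (adjusted p = 0.549). Its Day 0.25 arrays measured 1734, 3073 and 1669. The rise of 1416221_at (95% interval 0.40 to 1.09) was thus not seen in 1448259_at, though the 2 intervals overlap.

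Gremlin 1, the product of Grem1, binds BMPs. It measured 222, 131 and 173 on Day -1 and 326, 314 and 321 on Day 0, and this early rise of 0.91 on the log2 scale (SE 0.24, 1.87-fold, adjusted p = 0.00485) was its largest change between neighbouring time points. The rise did not pass with replicate 2 of every time point left out (0.72, adjusted p = 0.0788) or with linear intensities (adjusted p = 0.343). Means on Days 0.25, 1, 2 and 3 were 474 ± 101, 492 ± 48.6, 655 ± 83.8 and 675 ± 117 (SD, n = 3). On Day 5 its arrays measured 718, 1079.5 and 928. Between Day -1 and Day 5 it rose by 2.39 (SE 0.24, 5.24-fold, adjusted p = 2.76e-08). Each later interval missed the threshold, including Day 1 to Day 2 (0.41, 95% interval -0.09 to 0.92, adjusted p = 0.173). Day 4 replicate 1, the highest of all 24 arrays at 1127, lay above the other arrays of Day 4 at 646 and 502.

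**Figure D2:**
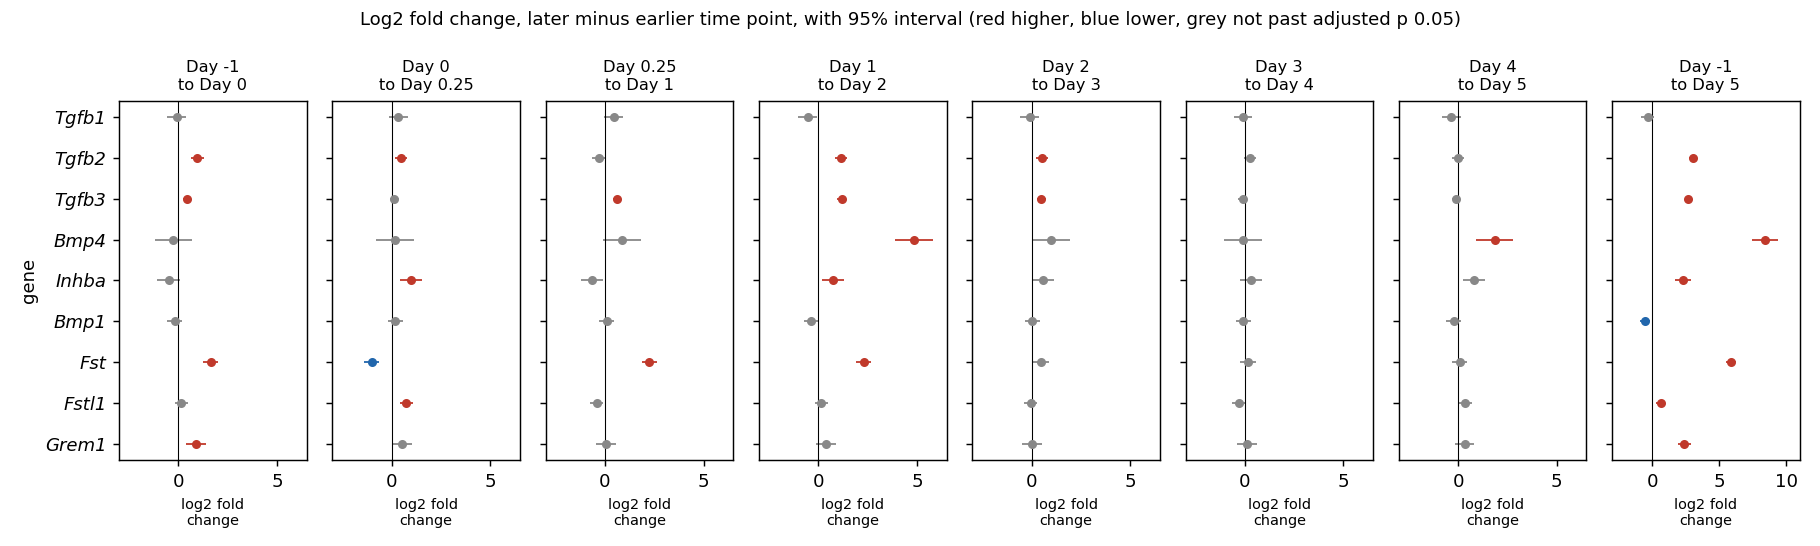
Log2 fold change of each gene's main probe set between neighbouring time points and from Day -1 to Day 5, with 95% intervals of the limma fit, on an x axis that is wider in the last panel. Tgfb2, Tgfb3, Bmp4, Inhba and Fst rose from Day 1 to Day 2. Bmp4 did so from values at the lower end of the scale (3.92-fold with values under 50 raised to 50). Between neighbouring time points Grem1 was called only from Day -1 to Day 0, though its mean was also higher at each later time point than at the one before. Fst fell only from Day 0 to Day 0.25.

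**Figure D3:**
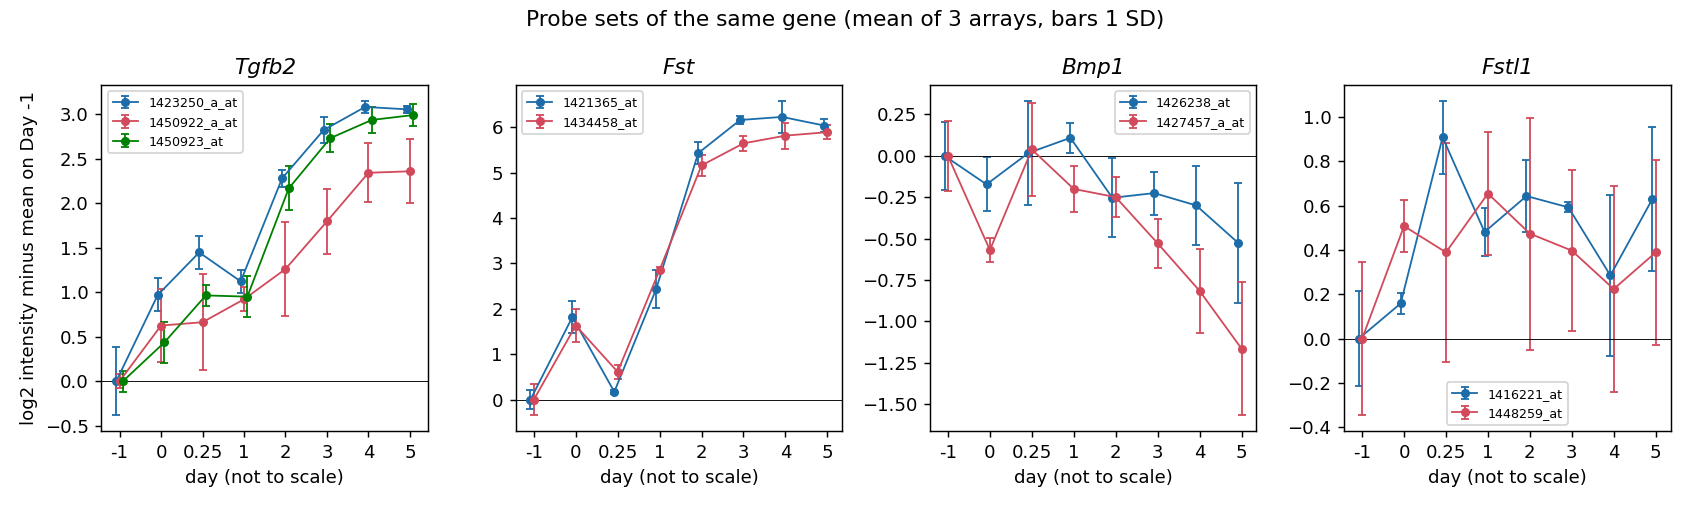
Log2 intensity relative to the Day -1 mean for the tested probe sets of Tgfb2, Fst, Bmp1 and Fstl1, as the mean of 3 arrays with bars of 1 SD, on y axes that differ. The Fst probe sets followed each other, with a dip at Day 0.25 in both, while those of Bmp1 differed in size. From Day 0 to Day 0.25 those of Fstl1 changed by 0.75 (95% interval 0.40 to 1.09) and -0.12 (-0.74 to 0.50).

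Other genes of the pathway, in lists of 102 genes, had 93 with a probe set, and 40 of these were tested (38 passed the F test, against 88.8% of all probe sets). Between Day 1 and Day 2, 18 of the 40 were called higher and 6 lower, beside 22.8% and 21.7% of all probe sets. Over the span from Day -1 to Day 5 the counts were 23 higher and 6 lower, beside 31.9% and 38.4%. Of the 40, 11 had means under 100 on Day -1 and entered the test through later levels, among them Inhbb, Hjv, Tgfbr3, Ltbp2, Dcn and Postn, and 10 of these 11 are among the 23, so these counts do not describe genes chosen without regard to a rise. Among other ligands, 1 of 27 was tested, Inhbb, which encodes a subunit of activin B. Its mean went from 25.5 on Day -1 to 194 on Day 1, 1035 on Day 2 and 1145 on Day 5, and the rise from Day 1 to Day 2 was 2.45 on the log2 scale (adjusted p = 6.46e-06).

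Of the 10 receptors and co-receptors tested, 7 were called higher and none lower on Day 2 than on Day 1 (22.8% and 21.7% of all probe sets), and their median log2 change was 0.58 beside -0.01 over all probe sets. Hjv, a BMP co-receptor, had a mean of 3.81 on Day -1, 145 on Day 0 and 1000.4 on Day 5. Tgfbr3, the co-receptor betaglycan, rose by 2.09 from Day 1 to Day 2 (adjusted p = 3.23e-05). Acvr1, a type I BMP receptor, changed by -0.22 from Day -1 to Day 5 (adjusted p = 0.135), after -0.54 at Day 0 (adjusted p = 0.00209) and 0.63 at Day 0.25 (adjusted p = 0.000688). Among 6 tested genes of latency and storage, 5 rose and 1 fell from Day -1 to Day 5 (31.9% and 38.4% of all probe sets). Those that rose included thrombospondin 1 (Thbs1, 2.75, adjusted p = 1.96e-09), which can activate latent TGF-beta, and Ltbp2 (2.43, adjusted p = 5.38e-07). Ltbp1 had a mean of 487 on Day -1 and 333 on Day 5.

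Among the 6 other secreted inhibitors tested, 4 rose from Day -1 to Day 5 and 1 fell, where 31.9% of all probe sets rose and 38.4% fell. Decorin (Dcn), a proteoglycan that binds TGF-beta, rose from 37.7 on Day -1 to 5445 on Day 5, a change of 7.20 on the log2 scale (adjusted p = 7.71e-18). It rose to 498 on Day 0, fell to 56.2 on Day 0.25 and rose again to 609 on Day 1, the order of levels also seen for Fst. Biglycan (Bgn) rose by 1.98 over the same span (adjusted p = 6.58e-11). Twsg1 went from a mean of 489 on Day -1 to 321 on Day 5, and Fstl3 from 132 to 122. Of 8 tested inhibitors inside the cell, 3 rose and 3 fell over this span (31.9% and 38.4% of all probe sets). Their median log2 change was 0.02 beside -0.08 over all probe sets. Skil went from a mean of 547 to 784 and Tgif1 from 349 to 419, while Fkbp1a went from 4922 to 4109 and Smurf1 from 435 to 248.

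Textbook target genes of the ligands moved in both directions. Of 9 tested TGF-beta and activin targets, 4 were higher on Day 2 than on Day 1 and none lower (22.8% and 21.7% of all probe sets), including Ccn2 (a matricellular protein, 1.49, adjusted p = 3.4e-05) and Postn (periostin, 1.30, adjusted p = 0.000765). Ccn2 measured 301, 298 and 376 on Day 1 and 1158, 887 and 731 on Day 2. Col1a1 had means of 567 on Day 1 and 611 on Day 2, and Pmepa1 of 951 and 724. Of 5 tested BMP targets, 4 fell and none rose in that interval (21.7% and 22.8% of all probe sets), in which Bmp4 rose. Id2 measured 453, 534 and 390.3 on Day 1 and 96.8, 181 and 80.1 on Day 2, a change of -2.03 (adjusted p = 2.07e-05), and Id3 changed by -0.92 (adjusted p = 0.0425). From Day 0 to Day 0.25, 3 of these 5 rose and none fell (22.4% and 20.9% of all probe sets). Bmp4 then had means of 3.25 and 3.75, at the lower end of the scale. Means in that interval went from 195 to 957 for Id2 and from 170 to 845 for Id3. From Day 4 to Day 5, when Bmp4 was called higher, 4 of these 5 rose and Hey1 fell, where 1.38% of all probe sets rose and 2.12% fell. Of the 40 pathway genes, 7 were called in this interval, 0 in the two-group fit and 0 to 11 with replicates left out. Id2 went from 297, 135 and 171 on Day 4 to 556, 713 and 702 on Day 5 (1.78, adjusted p = 0.00232), and Id3 from 751, 247 and 339 to 925, 1328 and 1199.6 (1.52, adjusted p = 0.0234). Id1 and Smad7, named after their values were seen, changed by 1.41 (adjusted p = 0.00814) and 1.20 (adjusted p = 0.00761). Day 4 replicate 1 was the highest array of its day for Bmp4, Id2 and Id3, and Id1, Id2 and Id3 correlated with the shared deviation of the arrays at r of 0.86, 0.70 and 0.69.

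**Figure D4:**
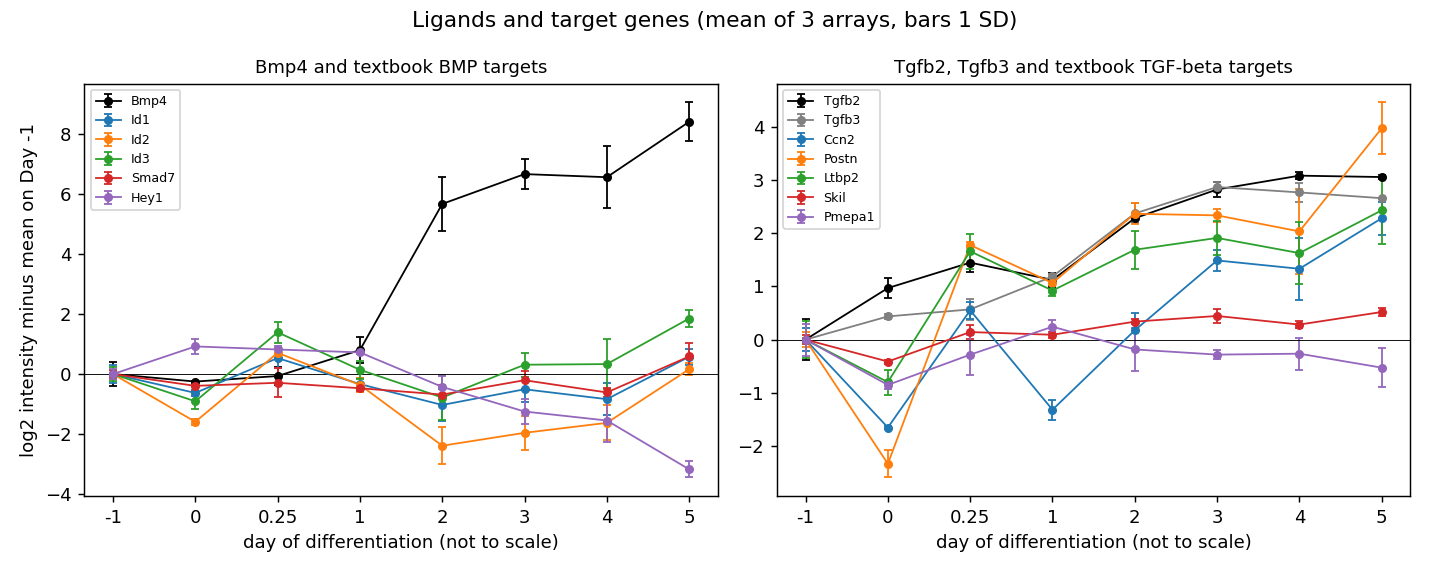
Log2 intensity relative to the Day -1 mean for Bmp4 with BMP targets (left) and for Tgfb2 and Tgfb3 with TGF-beta targets (right), as means of 3 arrays with bars of 1 SD, over the 8 time points. Id2 fell from Day 1 to Day 2 by 2.03 on the log2 scale as Bmp4 rose from the lower end of the scale (3.92-fold with values under 50 raised to 50), and rose by 1.78 from Day 4 to Day 5. The mean of Id2 also went from 195 on Day 0 to 957 on Day 0.25, where Bmp4 had means of 3.25 and 3.75.

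The genes most like each member were taken by Pearson's r of the 8 time point means of log2 intensity. The 3440 candidate genes had passed the F test and had a range of at least 1 on the log2 scale. Bmp1 was left out because its main probe set did not pass the F test. Tgfb3 was most like Fam171a2, Dysf and Svil, and 738 genes had an r over 0.9 with it. Fst was most like Txlnb, Pygm and Tbc1d8 (763 genes over 0.9), Bmp4 like C1ra, Gprin3 and Pappa2 (595) and Tgfb2 like Coro6, Mttp and Ubl3 (569). Inhba was most like Enpp4, Col12a1 and Sh3rf1 (117), and Grem1 like Smyd1, Cirbp and Serinc2 (240). Tgfb1 was most like Cxxc5, Spn and A4galt, with 3 genes over 0.9, and Fstl1 like Tmem119, Kremen1 and Creb3l1, with 0 over 0.9. By Spearman's rho the genes were others for Tgfb1 (Notch1, E2f2 and Jup), Tgfb3 (Ehbp1l1, St3gal4 and Osbpl5) and Fst (Myh7, Myom3 and Jph1). Grem1 kept all of its genes, and Tgfb2, Bmp4, Inhba and Fstl1 kept some. Over the 24 arrays Spn and A4galt correlated with Tgfb1 at r of 0.63 and 0.56. The points share the 24 arrays, so these are descriptions over 8 time points.

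Markers of other cells were read beside these genes. Of 5 fibroblast markers, 3 reached 100, and their summed intensity was 418 to 605 on Day -1 and 2181 to 4581 on Day 5, most of it Pdgfrb, at a mean of 3154 on Day 5. Lum had means of 3.45 on Day -1, 55.7 on Day 2 and 171 on Day 5, and Pdgfra of 27.5, 101 and 148. Thy1 and Tcf21 stayed near 2 at every time point. Of 5 osteoblast markers, 3 were measured, and these (Alpl, Sp7 and Ibsp) did not pass 5 on any array. Runx2 and Bglap had no probe set assigned to them alone and were not read. None of 3 measured adipocyte, 4 macrophage and 3 endothelial markers reached 100. Of 3 smooth muscle markers, Smtn reached 100, with a summed intensity of 329 to 360 on Day -1 and 330 to 384 on Day 5. Of 3 chondrocyte markers, Sox9 reached 100, with a mean of 285 on Day -1 and 135 on Day 5, while Acan and Col2a1 stayed near 2. The part of cells with Pdgfrb, Pdgfra or Lum RNA in the results was not tested.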

How the data were processed

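RNA of C2C12 cells was hybridised to 24 Affymetrix arrays, and groups came from the sample labels. The deposited intensity of each probe set is on a linear scale. Per the methods, the authors obtained it by GC-RMA followed by exponentiation to base 2, and then set the 2% trimmed mean of every array to 150. The notes of the submitters list GCRMA and MAS5 without saying what the latter did. Log2 intensities were fitted over 8 time points by moderated t and F in limma 3.58.1 (R 4.3.3) for 13735 probe sets whose mean reached 100 at 1 or more time points. P-values were adjusted over all of them (Benjamini-Hochberg, threshold 0.05). A gene stands by its probe set with the highest mean log2 intensity. The number of arrays limits the precision, and an exact permutation test on 3 and 3 arrays has 0.1 as its smallest p. The fit was tested on simulated data with noise drawn separately for each value, so without a deviation shared by many probe sets. The genes, lists and tests were chosen with earlier results of these data known. Named pathway genes were up to 2 with the lowest F test p in each direction (Day 5 against Day -1) in each list. Id1 and Smad7, named after their values were seen, are exceptions. Alternatives were a block for the replicate number, linear values, other level filters, quantile normalization, values raised to 50, a trend in the prior, a 2-fold threshold, the methods' two-group fit, the probe set with the largest moderated t, and leaving out arrays. Promoters came from RefSeq.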

Additional observations from a re-analysis of the deposited data

How the results depend on the processing

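Of 41 calls for a probe set and interval, 17 held in all 11 alternative fits and with each of the 24 arrays left out, 24 were lost in 1 or more, and 0 reversed. A call also counted as lost where its probe set lay below the level filter and was not tested. This was the only loss for Inhba from Day -1 to Day 5, with a level of at least 200. The 2-fold threshold is not among these fits, and 14 of the 17 passed it. Intervals are named here by their first and last day. With linear intensities, the member genes called were 1 for Day -1 to 0 (4 in the fit used), 1 for Day 0 to 0.25 (4), 1 for Day 0.25 to 1 (2), 1 for Day 3 to 4 (0) and 2 for Day 4 to 5 (1). Pathway genes were then 11, 11 and 9 in the first 3 intervals (20, 23 and 14 in the fit used). With no level filter, 1 member gene and 1 pathway gene were called for Day 2 to 3, and 0 member genes for Day 4 to 5. With values under 50 raised to 50, 2 member genes were called for Day 0 to 0.25 and 2 for Day 4 to 5. With the two-group fit, 0 member genes were called for Day 2 to 3, and 0 member genes and 0 pathway genes for Day 4 to 5. With a 2-fold threshold, member genes were 1, 1 and 1 in the first 3 intervals and 0 for Day 2 to 3, and pathway genes were 8, 10 and 8 in the first 3 intervals, 10 for Day 1 to 2, 1 for Day 2 to 3 and 15 for Day -1 to 5. The cause of these differences was not tested.

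Leaving out replicates, of 1 time point or of all, gave 7 to 9 member genes for the F test, 3 to 5 for Day 0 to 0.25, 2 to 4 for Day 0.25 to 1, 4 to 6 for Day 1 to 2, 0 to 2 for Day 2 to 3 and 0 to 1 for Day 4 to 5. Pathway genes ranged from 13 to 22, 16 to 25, 6 to 17, 12 to 27, 0 to 4, 0 to 1 and 0 to 11 over the 7 intervals in order, and from 23 to 32 for Day -1 to 5. Arrays with the same replicate number were not always closest to each other (r between deviations of -0.51 to 0.55, with 9 of 21 arrays closest to their own number). From Day 3 to Day 4 each array was closest to its own number. Whether the numbers mark shared cultures was not tested. With the replicate block, 9 member genes passed the F test, including Bmp1, and Fst 1421365_at was no longer called for Day 2 to 3 (adjusted p = 0.056). Under quantile normalization the median change of all probe sets stayed within 0.1 of the one used.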
